A study of Mus musculus with 28 samples.

Results

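The genes described here are 42 regulators of chromatin: enzymes that write or erase DNA methylation and histone marks, subunits of polycomb and chromatin remodelling complexes, and the chromatin organiser Satb1. The list was fixed by name, but it was chosen with earlier results of these data known. All 42 genes were found in each experiment. The counts held 21610 gene names in the subset experiment, 20603 in the treatment experiment and 27933 in single cells. All 42 also passed the filter on low counts in both bulk experiments, where 12388 and 12710 genes were tested. By role they fall into 5 DNA methylation enzymes, 6 polycomb genes, 4 methyltransferases of histone H3 lysine 4 or 36, 2 of H3 lysine 9, 8 histone demethylases, 7 deacetylases, 4 acetyltransferases and 6 remodelling or organising genes.

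The cells were CD8+ tumour-infiltrating lymphocytes (TILs). They came from C57BL/6 mice, all wild type, bearing MC38-OVA, a mouse colon carcinoma line that carries ovalbumin. In the subset experiment, TILs without PD-1 were sorted by surface markers. The effector-like group was CD62L-Slamf7hiCX3CR1+ (n = 3), the memory-like group CD62L-Slamf7hiCX3CR1- (n = 5) and the naive-like group CD62LhiSlamf7-CX3CR1- (n = 6). The treatment experiment used other sorts: Tim-3+PD-1+ cells (DP) and Tim-3-PD-1- cells (DN) were sorted on day 12 after tumour implantation from mice given antibodies against PD-1 and Tim-3 (blockade) or isotype control antibodies, with 3 libraries in each of the 4 groups. DN cells were also profiled as single cells, with 1 library after blockade and 1 after isotype. Names of effector-like replicates 1 and 2 carry several numbers, so those libraries may be pools, and nothing in the labels says that replicates came from separate mice. The p-values below therefore measure the spread between these libraries only.

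Chromatin regulators act by marking or moving nucleosomes. Polycomb repressive complex 2, whose catalytic subunit is Ezh2 or Ezh1, places the repressive mark H3K27me3, and Kdm6a and Kdm6b remove it. Dnmt3a and Dnmt3b methylate DNA at new sites, while the Tet enzymes oxidise methylcytosine. In CD8 T cells these enzymes are known for closing or keeping open the genes of the naive and memory states as cells become effectors, and Ezh2 is known to be higher in dividing cells.

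Bulk depth was 5.03 to 7.98 M counts in the subset experiment and 8.01 to 13.6 M in the treatment experiment. The biological coefficient of variation was 0.624 and 0.229, so changes of equal size were harder to detect among the subsets. Levels are given as CPM, counts relative to the library total after scaling by the trimmed mean of M-values (TMM). A gene counted as called where edgeR's quasi-likelihood test gave an adjusted p under 0.05 (Benjamini-Hochberg, over all genes tested). The sorts matched their labels in T cell state genes. A list of 11 naive and homing genes summed to 1136 to 1895 CPM in the effector-like group, 1985 to 2651 CPM in the memory-like group and 4728 to 6126 CPM in the naive-like group, and 13 effector genes to 10384 to 13842 CPM in the effector-like group, 2987 to 5559 CPM in the memory-like group and 1300.0 to 2293 CPM in the naive-like group. All 9 T cell genes checked, Cd3e and Cd8a among them, were above 0 in every bulk library. No pair of replicates agreed within sampling noise.

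Read per transcript length, the members spanned a wide range of levels. The authors' normalized signal divides by transcript length in effect, since signal per count fell as annotated length rose (Spearman's rho -0.837 across 6484 genes and -0.838 across 8071; genes are not independent). On that scale Satb1 (mean 61.2 ± 11.1), Hdac1 (59.1 ± 11.7) and Hdac3 (39.5 ± 11.3) led in naive-like cells, while Tet1 (0.51 ± 0.365) and Suv39h2 (0.23 ± 0.259) were lowest. In DP cells after isotype Hdac1 (100.3 ± 5.32) and Hdac3 (49.9 ± 3.72) led, Suv39h1 (25.9 ± 2.65) came next, and Tet1 (0.0467 ± 0.0115) was lowest (signal, mean ± SD).

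Several paralogs divided unequally on this per-length signal. Hdac1 exceeded Hdac2 and Suv39h1 exceeded Suv39h2 in all 26 bulk libraries. Ezh1, the polycomb methyltransferase of resting cells, exceeded Ezh2 in all 26, but the gap was narrow in DP cells after isotype, with a signal of 14.3 ± 2.12 for Ezh2 and 16.2 ± 2.42 for Ezh1, and wide in naive-like cells, at 4.63 ± 2.05 and 25.8 ± 6.63. Counts of single DN cells, not divided by length, gave the reverse order for this pair. There Ezh2 had 39.7 CPM and Ezh1 12.3 CPM after blockade, and 25.9 and 11.9 CPM after isotype. Hdac1 over Hdac2 and Suv39h1 over Suv39h2 held in those cells. The remodelling ATPases Chd4 and Chd3 had similar signals in DN cells after isotype (13.8 ± 1.42 and 15 ± 1.56), whereas in DP cells after isotype Chd4 stood at 14.5 ± 1.0 and Chd3 at 8.54 ± 0.919.

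The comparison of Tim-3+PD-1+ with Tim-3-PD-1- cells asked how the regulators differ between TILs that carry both inhibitory receptors and TILs that carry neither. In DP cells, Ezh2, Suv39h1, Hdac1, Hdac3 and Kdm2b rose, and Satb1, Tet1, Chd3, Kmt2d, Setd2, Kdm5a, Kdm5b, Kdm6b, Hdac4, Hdac5, Crebbp, Smarca2 and Arid1a fell, both after blockade and after isotype. After blockade 6 members were higher and 14 lower in DP cells, with 27% of all genes called in either direction, 14.4% higher and 12.5% lower. After isotype 5 were higher and 14 lower, with 29.9% of all genes called, 15% higher and 14.8% lower. At an unadjusted p under 0.05 there were 21 members after blockade (38.6% of all genes) and 21 after isotype (40.2%). The median log2 fold change of the 42 members was -0.24 after blockade, against -0.04 over all genes tested, and -0.24 after isotype, against 0.00257 over all genes. The libraries of DP and DN cells did not overlap for 25 members under either treatment. Over all genes this share was 44.4% after blockade and 43.9% after isotype. Since the members were chosen with earlier results known, the shares called cannot show whether chromatin regulators differ more often than other genes.

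**Figure D1:**
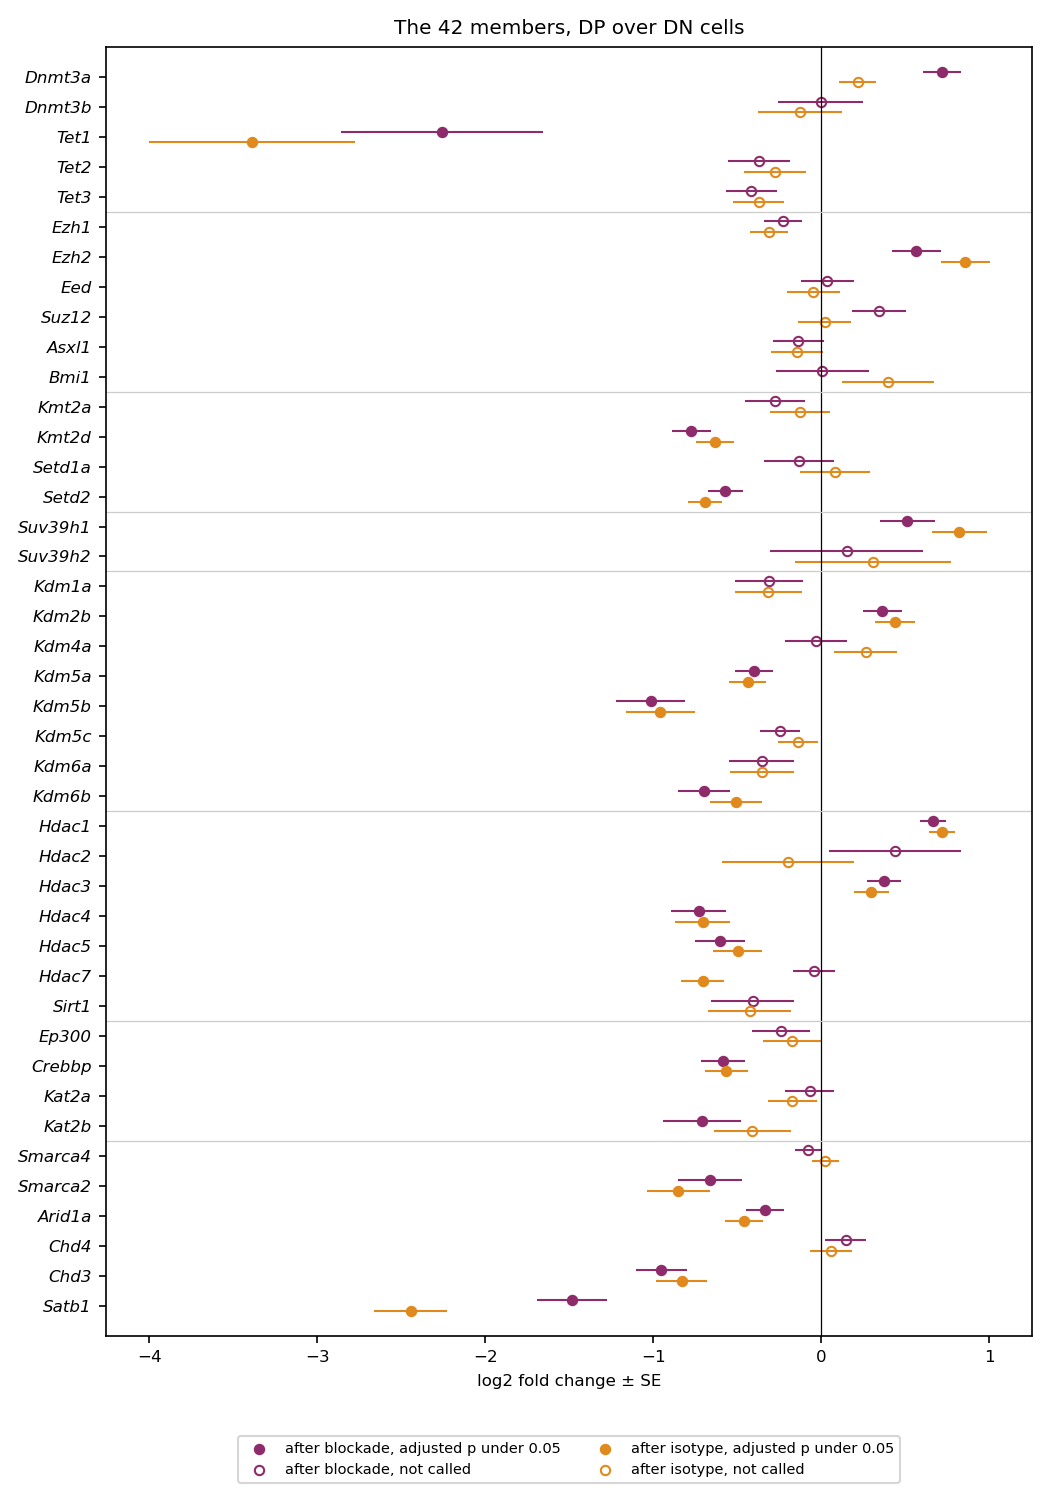
Log2 fold change ± SE of the 42 members in DP over DN cells, after blockade and after isotype, grouped by role between the grey lines. Filled points had an adjusted p under 0.05. Satb1 and Tet1 lie farthest left, and Ezh2, Suv39h1 and Hdac1 lie right of 0 under both treatments.

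In the polycomb group only Ezh2 passed the test. After blockade Ezh2 had 37.7, 33.6 and 33.4 CPM in DP cells, against 20.7, 25.9 and 24.1 CPM in DN cells. After isotype Ezh2 had 42.7, 32.1 and 38.9 CPM in DP cells, against 22.9, 21.5 and 18.4 CPM in DN cells. Every DP library lay above every DN library, and the log2 fold change was 0.57 ± 0.15 after blockade (adjusted p = 0.0123) and 0.86 ± 0.15 after isotype (adjusted p = 0.000795). The partner subunits Eed (0.04 ± 0.16 after blockade and -0.05 ± 0.16 after isotype) and Suz12 (0.35 ± 0.16 and 0.02 ± 0.16) were not called, nor were Asxl1 or Bmi1, a subunit of polycomb repressive complex 1. Ezh1 was apart after isotype, at 74.2, 56.9 and 72.1 CPM in DP cells, against 82.2, 90.7 and 79.2 CPM in DN cells, but was not called (-0.31 ± 0.11, adjusted p = 0.0549; -0.23 ± 0.11 and 0.154 after blockade).

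Suv39h1, which places the heterochromatin mark H3K9me3, was higher in DP than in DN cells under both treatments, as Ezh2 was. After blockade Suv39h1 had 72.2, 76.6 and 67.5 CPM in DP cells, against 51.4, 42.5 and 57.5 CPM in DN cells. After isotype Suv39h1 had 74.1, 91.1 and 76.8 CPM in DP cells, against 43.5, 35.8 and 57.3 CPM in DN cells. No DP library fell to the level of a DN library, with log2 fold changes of 0.51 ± 0.16 (adjusted p = 0.0355) and 0.82 ± 0.17 (adjusted p = 0.00243). Its paralog Suv39h2 stayed under 3 CPM in every library of both populations and was not called.

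The promoters of Ezh2 and Suv39h1, both higher in DP cells, are shown with that of Arid1a, a member lower in DP cells that also carries the motif searched, and that of Hdac4, a lower member that does not. E2F factors drive genes of the cell cycle. Capitals mark matches on either strand to TTTCCCGC, TTTGGCGC, TTTCGCGC or TTTGCCGC, forms of the E2F site. These motifs can overlap each other in palindromic runs, and no such run occurs in the sequences shown. Where a gene had several annotated starts, the start with the most matches is shown. The other annotated start of Suv39h1 and that of Arid1a held 0 matches. The sequences are from RefSeq (GRCm38.p6, 250 bases before to 50 after the annotated start, all on the minus strand and written 5′ to 3′ along the gene): Ezh2 at chr6:47594981-47595280, Suv39h1 at chrX:8074312-8074611 (1 of 2 annotated starts), Arid1a at chr4:133753936-133754235 (1 of 2) and Hdac4 at chr1:92180292-92180591.
Ezh2: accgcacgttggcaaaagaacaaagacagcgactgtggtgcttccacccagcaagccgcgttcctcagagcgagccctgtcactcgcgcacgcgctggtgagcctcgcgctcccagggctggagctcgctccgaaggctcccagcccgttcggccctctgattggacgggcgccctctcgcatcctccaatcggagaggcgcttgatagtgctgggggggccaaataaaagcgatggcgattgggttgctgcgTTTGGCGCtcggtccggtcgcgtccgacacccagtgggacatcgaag
Suv39h1: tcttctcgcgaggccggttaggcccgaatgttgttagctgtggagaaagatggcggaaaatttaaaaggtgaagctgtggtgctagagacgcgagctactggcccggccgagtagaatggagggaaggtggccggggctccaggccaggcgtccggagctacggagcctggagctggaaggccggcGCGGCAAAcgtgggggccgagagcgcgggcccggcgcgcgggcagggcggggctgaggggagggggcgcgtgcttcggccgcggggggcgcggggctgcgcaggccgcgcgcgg
Arid1a: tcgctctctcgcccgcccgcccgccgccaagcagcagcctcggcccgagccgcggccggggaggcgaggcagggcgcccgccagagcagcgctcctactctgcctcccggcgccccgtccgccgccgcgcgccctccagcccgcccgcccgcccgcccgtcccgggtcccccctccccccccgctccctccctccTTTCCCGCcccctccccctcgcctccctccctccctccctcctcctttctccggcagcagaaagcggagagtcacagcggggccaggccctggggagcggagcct
Hdac4: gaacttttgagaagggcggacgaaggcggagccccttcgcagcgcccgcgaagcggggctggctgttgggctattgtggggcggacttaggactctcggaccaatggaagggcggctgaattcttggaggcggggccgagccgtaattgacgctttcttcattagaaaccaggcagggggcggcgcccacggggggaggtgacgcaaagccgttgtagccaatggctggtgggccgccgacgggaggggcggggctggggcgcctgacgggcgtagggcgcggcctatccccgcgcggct
The match in Ezh2 starts at base 254, just past the annotated start, that in Suv39h1 at base 187 and that in Arid1a at base 196, counted from the 5′ end. Of the 53 promoters of 37 members in the table, 5 held a match (9.43%): those of Ezh2, Suv39h1, Suz12, Kat2a and Arid1a. Over all 32851 promoters of the same length the share was 2.26%. A match of letters does not show binding, and members with a match moved in both directions.

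Of the 7 deacetylases, 2 were higher and 2 lower in DP cells after blockade, and 2 higher and 3 lower after isotype. The class I enzymes Hdac1 and Hdac3, catalytic subunits of nuclear co-repressor complexes, rose in DP cells. After blockade Hdac1 had 209.7, 223 and 220.0 CPM in DP cells, against 132, 144 and 135 CPM in DN cells. After isotype Hdac1 had 209, 190.3 and 193 CPM in DP cells, against 116, 119 and 124 CPM in DN cells. Its groups were far apart, with the smallest adjusted p of any rising member: log2 fold changes of 0.67 ± 0.08 (adjusted p = 8.26e-05) and 0.72 ± 0.08 (adjusted p = 3.18e-05). After blockade Hdac3 had 92.5, 106 and 92.8 CPM in DP cells, against 68.6, 72.4 and 83.5 CPM in DN cells. After isotype Hdac3 had 104, 92.8 and 104 CPM in DP cells, against 78, 78.4 and 87.5 CPM in DN cells. Here the gap between the populations was small, at 0.38 ± 0.10 (adjusted p = 0.0173) and 0.30 ± 0.10 (adjusted p = 0.0443).

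Of the class IIa enzymes, which shuttle between nucleus and cytoplasm and act with MEF2 factors, Hdac4 and Hdac5 fell in DP cells under both treatments and Hdac7 after isotype. After blockade Hdac4 had 26.5, 20.3 and 28.8 CPM in DP cells, against 41.6, 50.1 and 33.6 CPM in DN cells. After isotype Hdac4 had 31.5, 28.9 and 27.5 CPM in DP cells, against 50.1, 44.1 and 49 CPM in DN cells, for log2 fold changes of -0.73 ± 0.16 (adjusted p = 0.0061) and -0.70 ± 0.16 (adjusted p = 0.0059). Hdac5 showed the same order without overlap. After blockade Hdac5 had 45.7, 43.6 and 53.5 CPM in DP cells, against 82.9, 61.2 and 72.3 CPM in DN cells. After isotype Hdac5 had 56.4, 55.7 and 42.3 CPM in DP cells, against 67.9, 68.5 and 81.1 CPM in DN cells, for -0.60 ± 0.15 (adjusted p = 0.00979) and -0.50 ± 0.15 (adjusted p = 0.0231). Hdac7, a class IIa enzyme known from thymocytes, was called after isotype and not after blockade, and the difference between treatments is tested further on as an interaction. After blockade Hdac7 had 49.4, 45.1 and 41.1 CPM in DP cells, against 40.6, 52.6 and 46.4 CPM in DN cells, which overlapped (-0.04 ± 0.13, adjusted p = 0.845). After isotype Hdac7 had 35.7, 33.5 and 39.7 CPM in DP cells, against 56.3, 65.5 and 56 CPM in DN cells, with no overlap (-0.71 ± 0.13, adjusted p = 0.0012). Hdac2 and the deacetylase Sirt1 were not called under either treatment.

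Satb1, which folds chromatin into loops at genes of the T cell lineage, fell furthest among the well-expressed members. After blockade Satb1 had 41.6, 34.1 and 28.5 CPM in DP cells, against 103, 122 and 66.8 CPM in DN cells. After isotype Satb1 had 32.8, 30.2 and 31.4 CPM in DP cells, against 167, 205 and 142 CPM in DN cells. All DP libraries lay below 42 CPM and all DN libraries above 66 CPM, with log2 fold changes of -1.48 ± 0.21 (adjusted p = 0.000294) and -2.44 ± 0.21 (adjusted p = 5.86e-06). Chd3, an ATPase of the NuRD complex, followed. After blockade Chd3 had 45.4, 48.4 and 59.2 CPM in DP cells, against 99.5, 117 and 79.8 CPM in DN cells. After isotype Chd3 had 58.2, 59.4 and 68.8 CPM in DP cells, against 103, 126 and 102 CPM in DN cells, for -0.95 ± 0.15 (adjusted p = 0.000708) and -0.83 ± 0.15 (adjusted p = 0.00132). Its paralog Chd4 was not called (0.15 ± 0.12 and 0.06 ± 0.12).

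Genes of the SWI/SNF remodelling complex fell as well. After blockade Smarca2, an ATPase of the complex, had 44.4, 41.2 and 57.7 CPM in DP cells, against 72.4, 91.9 and 62.3 CPM in DN cells. After isotype Smarca2 had 54.8, 44 and 54.2 CPM in DP cells, against 92, 111 and 72.2 CPM in DN cells, for -0.66 ± 0.19 (adjusted p = 0.0214) and -0.85 ± 0.19 (adjusted p = 0.00463). Smarca4, the alternative ATPase, was not called (-0.08 ± 0.08 and 0.03 ± 0.08). After blockade the subunit Arid1a had 127, 119 and 145 CPM in DP cells, against 161, 175 and 156 CPM in DN cells. After isotype Arid1a had 126, 138 and 138 CPM in DP cells, against 175, 214 and 163 CPM in DN cells, a small difference with little room between the groups (-0.33 ± 0.11, adjusted p = 0.0448, and -0.46 ± 0.11, adjusted p = 0.00837).

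Histone methyltransferases and acetyltransferases that act at active genes were lower or not called. After blockade Kmt2d, which methylates H3K4 at enhancers, had 319, 327 and 365 CPM in DP cells, against 587, 608 and 534 CPM in DN cells. After isotype Kmt2d had 369, 405 and 428 CPM in DP cells, against 585, 738 and 540.0 CPM in DN cells. Both gaps were wider than the spread, at -0.77 ± 0.12 (adjusted p = 0.000457) and -0.63 ± 0.12 (adjusted p = 0.00135). After blockade Setd2, which places H3K36me3 in gene bodies, had 43.1, 38.6 and 43 CPM in DP cells, against 61.2, 62.9 and 60.9 CPM in DN cells. After isotype Setd2 had 46.9, 47.5 and 52 CPM in DP cells, against 79.7, 86.4 and 70.4 CPM in DN cells, again without overlap (-0.57 ± 0.10, adjusted p = 0.00148, and -0.69 ± 0.10, adjusted p = 0.000282). After blockade the acetyltransferase Crebbp had 54.6, 50.4 and 65.8 CPM in DP cells, against 84.9, 84.6 and 86.1 CPM in DN cells. After isotype Crebbp had 57.5, 60.1 and 67.1 CPM in DP cells, against 88.8, 106 and 78 CPM in DN cells (-0.58 ± 0.13, adjusted p = 0.00568, and -0.56 ± 0.13, adjusted p = 0.00554). Its close relative Ep300 was not called (-0.24 ± 0.17 and -0.17 ± 0.18), and the acetyltransferase Kat2b was called after blockade (-0.71 ± 0.23, adjusted p = 0.0377) but not after isotype (-0.41 ± 0.23, adjusted p = 0.201). Kmt2a, Setd1a and Kat2a were not called.

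Among the demethylases 3 fell and 1 rose under both treatments. Kdm5a and Kdm5b erase H3K4 methylation. After blockade Kdm5b had 21.5, 16.7 and 11.8 CPM in DP cells, against 38.3, 29.7 and 33.2 CPM in DN cells. After isotype Kdm5b had 15.3, 22.4 and 18 CPM in DP cells, against 37.1, 35.1 and 36 CPM in DN cells (-1.01 ± 0.21, adjusted p = 0.00328, and -0.96 ± 0.21, adjusted p = 0.00377). After blockade Kdm5a had 113, 95.5 and 108 CPM in DP cells, against 133, 163 and 122 CPM in DN cells. After isotype Kdm5a had 128, 129 and 130.3 CPM in DP cells, against 183, 181 and 161 CPM in DN cells (-0.40 ± 0.11, adjusted p = 0.0194, and -0.44 ± 0.11, adjusted p = 0.0106). Kdm6b, the inducible eraser of H3K27me3, was lower too. After blockade Kdm6b had 130.5, 103 and 109.5 CPM in DP cells, against 170.1, 213 and 172 CPM in DN cells. After isotype Kdm6b had 99.3, 102 and 111 CPM in DP cells, against 148, 180.4 and 115 CPM in DN cells (-0.70 ± 0.15, adjusted p = 0.00566, and -0.51 ± 0.15, adjusted p = 0.0261).

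Kdm2b, which brings a polycomb complex to unmethylated CpG islands, was the demethylase that rose. After blockade Kdm2b had 75.6, 65.3 and 57.1 CPM in DP cells, against 49.8, 54.5 and 49.5 CPM in DN cells. After isotype Kdm2b had 66.9, 66.4 and 60.7 CPM in DP cells, against 50.4, 49.9 and 42.5 CPM in DN cells. The lowest DP library of each treatment was above the highest DN library (0.37 ± 0.12, adjusted p = 0.0373, and 0.44 ± 0.12, adjusted p = 0.0139). Kdm1a, Kdm4a, Kdm5c and Kdm6a were not called.

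Of the DNA methylation enzymes, Tet1 fell under both treatments, and Dnmt3a rose after blockade and was not called after isotype. Tet1 was scarce throughout. After blockade Tet1 had 1.1, 0.535 and 0.185 CPM in DP cells, against 2.83, 3.67 and 2.47 CPM in DN cells. After isotype Tet1 had 0.499, 0.805 and 0.586 CPM in DP cells, against 7.81, 9.66 and 2.68 CPM in DN cells, where DN replicate 3 was the lowest. The log2 fold changes were -2.26 ± 0.60 (adjusted p = 0.0151) and -3.39 ± 0.61 (adjusted p = 0.00121). Tet2 (-0.37 ± 0.18 and -0.28 ± 0.18) and Tet3 (-0.42 ± 0.15, with libraries apart, adjusted p = 0.0603, and -0.37 ± 0.15) were below 0 in both and not called. Dnmt3a, a maker of new DNA methylation, had 57.8, 52.7 and 53.9 CPM in DP cells after blockade, against 35.3, 34.4 and 30.1 CPM in DN cells after blockade (0.72 ± 0.11, adjusted p = 0.000616). After isotype Dnmt3a had 64.8, 55.9 and 56.3 CPM in DP cells, against 55.4, 51.1 and 45.7 CPM in DN cells (0.22 ± 0.11, adjusted p = 0.166). Its DN level after blockade stood apart from the other 3 groups, which is taken up with the blockade comparison. Dnmt3b was not called.

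**Figure D2:**
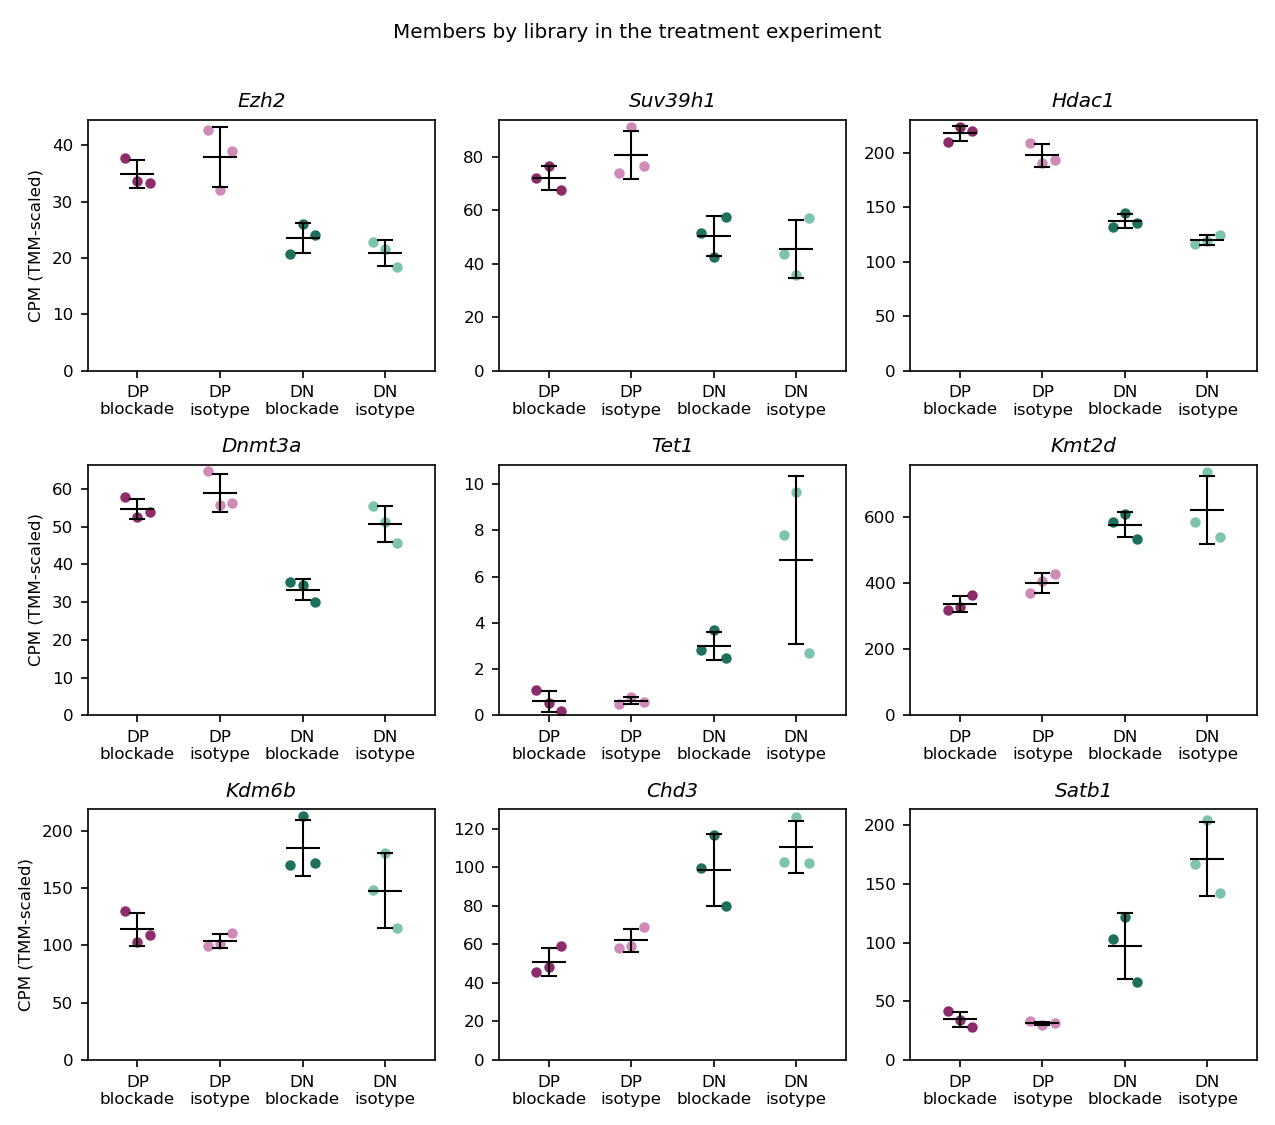
CPM of 9 members in each library of the treatment experiment, with mean and SD (n = 3 libraries a group). Ezh2, Suv39h1 and Hdac1 are higher in DP than in DN cells, Tet1, Kmt2d, Kdm6b, Chd3 and Satb1 are lower, and Dnmt3a is lowest in DN cells after blockade.

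The 18 members called under both treatments moved the same way in both, which was 90% of those called after blockade and 94.7% of those called after isotype. The libraries of these comparisons are separate. Over all genes, 2446 were called in the same direction in both, 71.4% of those called after blockade and 64.5% of those called after isotype, and 2 in opposite directions. In a list of 88 further chromatin genes, 10 were higher and 13 lower in DP cells after blockade, and 5 higher and 18 lower after isotype. That was 26.1% of the list under both treatments, beside 27% of all genes after blockade and 29.9% after isotype, so the list was not above the share of all genes. The maintenance DNA methyltransferase Dnmt1 (0.89 ± 0.12 and 0.94 ± 0.12) and its partner Uhrf1 (1.5 ± 0.25 and 1.58 ± 0.25) were among the higher ones, and Kdm7a, a demethylase of H3K9 and H3K27 (-1.16 ± 0.14 and -1.06 ± 0.14), and Nsd3, which methylates H3K36 (-0.65 ± 0.11 and -0.64 ± 0.11), among the lower.

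Other cell features moved with the sort. Naive and homing genes summed to 684 to 1060 CPM in DP cells after blockade, against 2211 to 2741 CPM in DN cells. The sums after isotype were 866 to 1167 and 3571 to 4394 CPM, with 10 of 11 lower in DP cells under both treatments. Effector genes summed to 5998 to 7680 CPM in DP cells after blockade, against 2722 to 3285 CPM in DN cells. Their sums after isotype were 5384 to 5728 and 2008 to 2393 CPM. Of 13, 8 were higher and 1 lower after blockade, and 9 higher after isotype. Of 22 S phase genes, 21 were higher in DP cells after blockade and 20 after isotype, with sums of 3488 to 3751 CPM in DP cells after blockade, against 1321 to 1580.5 CPM in DN cells, and 3039.8 to 3294 CPM in DP cells after isotype, against 1411 to 1797 CPM in DN cells. Of 22 G2/M genes, 17 were higher in DP cells after blockade and 22 after isotype. Markers of plasmacytoid dendritic cells summed to 384 to 446 CPM in DP cells after blockade, against 1145 to 1679 CPM in DN cells, and to 350.2 to 428 CPM in DP cells after isotype, against 1734 to 2623 CPM in DN cells, with 9 of 10 lower in DP cells under both treatments and none at 0 in a DN library. Myeloid markers ran the other way, at 266 to 547 CPM in DP cells after blockade, against 62.8 to 209 CPM in DN cells, and 231 to 277 CPM in DP cells after isotype, against 49.4 to 77.8 CPM in DN cells, with none of 10 at 0 in a DP library and up to 3 at 0 in a DN library. The part of T cell state, of Rn45s, of dividing cells and of other cell types in the members' differences was not tested. Fewer cells of a type cannot be told apart from less RNA per cell in bulk samples.

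Leaving out single libraries ended some of these calls. After blockade, Arid1a was lost without any of 9 libraries (adjusted p up to 0.166), Kat2b without any of 5 (up to 0.142), Kdm2b without any of 4 (up to 0.12), Suv39h1 without any of 4 (up to 0.124), Kdm5a, Hdac3 and Smarca2 without any of 3 (up to 0.0881, 0.0808 and 0.0924), Tet1 without DP blockade replicate 2 (0.0579) and Ezh2 without DN blockade replicate 1 (0.0545). After isotype, Hdac3 was lost without any of 7 libraries (up to 0.133), Kdm6b without any of 4 (up to 0.116) and Hdac5 without DN or DP isotype replicate 3 (up to 0.0898). Without DP blockade replicate 2, the number of members called after blockade was 12. Over all genes, the fits without 1 library called 2386 to 3812 after blockade, beside 3426 in the main fit. DP and DN libraries of a treatment share numbers in their names too, with correlations of 0.0612 to 0.152 after blockade and -0.00600 to 0.326 after isotype, not all over 0.1. With those numbers as a block Kat2b lost its call after blockade (adjusted p = 0.051).

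The subset experiment compared differentiation states among TILs without PD-1. Effector-like cells had lower Satb1 and Hdac4 than memory-like and naive-like cells, and lower Hdac7 than naive-like cells. Memory-like cells had higher Ezh2 and lower Kdm5a, Kdm5b, Kdm6b, Hdac4, Hdac5 and Crebbp than naive-like cells. Against memory-like cells, effector-like cells had 0 members higher and 2 lower, beside 1.91% of all genes called (0.484% higher and 1.43% lower). At an unadjusted p under 0.05 there were 5 members (11.5% of all genes), and the libraries of 5 did not overlap (10% of all genes). Against naive-like cells they had 0 higher and 3 lower, beside 6.42% (2.62% higher and 3.79% lower), with 9 members at an unadjusted p under 0.05 (18.7%) and 7 without overlap (12.9%). Memory-like against naive-like cells had 1 higher and 6 lower, beside 5.51% (2.78% higher and 2.73% lower), with 16 members at an unadjusted p under 0.05 (19.9%) and 6 without overlap (5.76%). The members' median log2 fold change was 0.02 in effector-like against memory-like cells (all genes 0.01), -0.28 in effector-like against naive-like cells (all genes 0.04) and -0.25 in memory-like against naive-like cells (all genes -0.00645). The comparisons with naive-like cells share those libraries, as do those with effector-like and with memory-like cells. The choice of members with earlier results known limits the members' shares here in the same way.

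**Figure D3:**
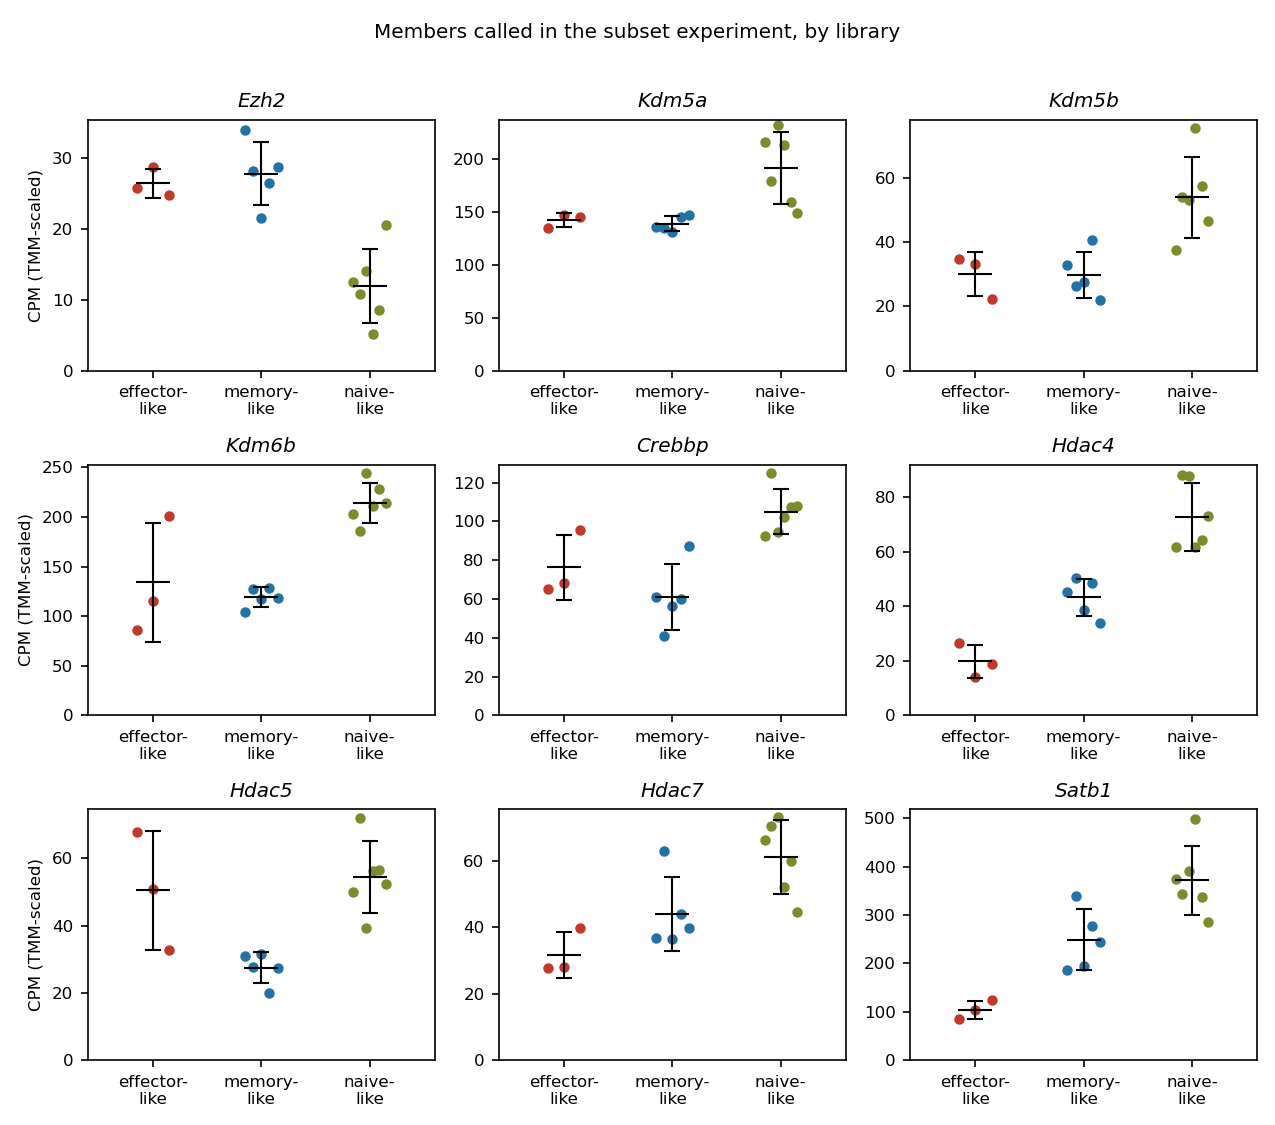
CPM of the 9 members called among the subsets, in each library, with mean and SD (effector-like n = 3, memory-like n = 5, naive-like n = 6). Satb1 and Hdac4 are lowest in effector-like and highest in naive-like cells, Ezh2 is lowest in naive-like cells, and Hdac5 is lowest in memory-like cells.

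Satb1 and Hdac4 stepped down over the 3 subsets. Satb1 had 84.3, 103 and 123 CPM in effector-like and 187, 339.6, 194, 278 and 245 CPM in memory-like libraries, and 287 to 498 (median 359.6) CPM in naive-like libraries. Effector-like libraries were below all others, while memory-like and naive-like libraries overlapped. The log2 fold change was -1.26 ± 0.22 against memory-like (adjusted p = 0.00568), -1.85 ± 0.22 against naive-like cells (adjusted p = 5.91e-05) and -0.58 ± 0.17 for memory-like against naive-like cells (adjusted p = 0.0637). Hdac4 had 26.4, 14.2 and 18.9 CPM in effector-like and 45.1, 50.2, 38.8, 48.5 and 33.9 CPM in memory-like libraries, and 61.6 to 88.3 (median 68.7) CPM in naive-like libraries. None of the 3 groups overlapped, with -1.12 ± 0.23 for effector-like against memory-like (adjusted p = 0.0194), -1.87 ± 0.24 for effector-like against naive-like (adjusted p = 9.45e-05) and -0.75 ± 0.19 for memory-like against naive-like cells (adjusted p = 0.0281). Hdac7 had 27.5, 27.9 and 39.6 CPM in effector-like and 36.8, 62.9, 36.4, 44 and 39.7 CPM in memory-like libraries, and 44.5 to 73 (median 63.1) CPM in naive-like libraries. Only effector-like and naive-like libraries were apart (-0.95 ± 0.23, adjusted p = 0.0216).

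Ezh2 and Hdac5 did not follow that order. Ezh2 had 25.8, 28.7 and 24.8 CPM in effector-like and 34, 28.1, 21.6, 26.5 and 28.7 CPM in memory-like libraries, and 5.22 to 20.5 (median 11.7) CPM in naive-like libraries. Both CD62L- subsets were above every naive-like library. The call held for memory-like cells (1.21 ± 0.29, adjusted p = 0.025) and just missed for effector-like cells (1.14 ± 0.33, adjusted p = 0.0532). Hdac5 had 67.9, 51 and 32.6 CPM in effector-like and 30.8, 27.6, 31.6, 20.04 and 27.5 CPM in memory-like libraries, and 39.4 to 72 (median 54.3) CPM in naive-like libraries. Memory-like libraries were below all others, by -0.98 ± 0.21 against naive-like cells (adjusted p = 0.0134), and effector-like exceeded memory-like cells by 0.88 ± 0.24 with an adjusted p of 0.0956.

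Of the 8 demethylases, Kdm5a, Kdm5b and Kdm6b fell in memory-like against naive-like cells, and Kdm1a, Kdm2b, Kdm4a, Kdm5c and Kdm6a were not called. Crebbp fell as well. Kdm6b had 86.2, 115 and 201 CPM in effector-like and 104, 127, 117, 129 and 118 CPM in memory-like libraries, and 186 to 244 (median 212) CPM in naive-like libraries. Memory-like and naive-like libraries were far apart (-0.85 ± 0.17, adjusted p = 0.00949), and effector-like replicate 3 reached into the naive-like range (-0.68 ± 0.20, adjusted p = 0.0613). Kdm5b had 34.8, 33.1 and 22.3 CPM in effector-like and 32.9, 26.3, 27.4, 40.6 and 22 CPM in memory-like libraries, and 37.5 to 75.4 (median 53.5) CPM in naive-like libraries (-0.85 ± 0.22 for memory-like against naive-like, adjusted p = 0.0314; -0.84 ± 0.26 for effector-like, 0.0664). Memory-like replicate 4 overlapped the naive-like range. Kdm5a had 135, 147 and 145 CPM in effector-like and 135, 135, 131, 145 and 147 CPM in memory-like libraries, and 149 to 232 (median 196) CPM in naive-like libraries, with naive-like cells above both (-0.46 ± 0.12 for memory-like, adjusted p = 0.0373, and -0.43 ± 0.14 for effector-like, 0.0966). Crebbp had 65, 68.2 and 95.6 CPM in effector-like and 61.2, 40.7, 56.2, 59.95 and 87.4 CPM in memory-like libraries, and 92.6 to 125 (median 105) CPM in naive-like libraries (-0.78 ± 0.18 for memory-like, adjusted p = 0.0181). All 5 memory-like libraries were below all 6 naive-like ones.

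Besides Hdac5 against memory-like cells and Ezh2, Kdm5a and Kdm5b against naive-like cells, given above, the members of effector-like cells that did not pass the test but whose libraries were apart at an unadjusted p under 0.05 were Kdm5c in effector-like against memory-like cells (0.59 ± 0.19, adjusted p = 0.181) and Setd2 in effector-like against naive-like cells (-0.45 ± 0.17, adjusted p = 0.147). Of the 88 further chromatin genes, 87 were tested, and the single call was Dnmt1, higher in effector-like than in naive-like cells (0.91 ± 0.21, adjusted p = 0.0154). That was 1.15% of the list in that comparison, beside 6.42% of all genes. No gene of that list was called in effector-like against memory-like cells or in memory-like against naive-like cells. At an unadjusted p under 0.05 in edgeR there were 5 (beside 11.5% of all genes) and 20 (beside 19.9%).

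Cycling and non-T genes also varied over the subsets. G2/M genes summed to 232 to 581 CPM in the effector-like group, 406 to 1359 CPM in the memory-like group and 56 to 280.5 CPM in the naive-like group, and 10 of 22 were higher in memory-like than in naive-like cells. Plasmacytoid dendritic cell markers summed to 215 to 305 CPM in the effector-like group, 484 to 1772 CPM in the memory-like group and 216 to 620.1 CPM in the naive-like group, with none of 10 at 0 in a memory-like library and 3 of 10 higher in memory-like than in naive-like cells. Myeloid markers summed to 43.7 to 502 CPM in the effector-like group, 17.4 to 739.8 CPM in the memory-like group and 20.2 to 1073 CPM in the naive-like group, with 3 of 10 lower in memory-like than in naive-like cells. Stroma and tumour markers summed to 1251, 632 and 8.59 CPM in effector-like replicates 1, 2 and 3, 12.3 to 85.9 CPM in the memory-like group and 12.1 to 554 CPM in the naive-like group, where replicate 6 was the highest, and none of the 7 tested was called. CD4 T cell markers summed to 38.8 to 43.7 CPM in the effector-like group, 58.2 to 110.0 CPM in the memory-like group and 3.59 to 47.1 CPM in the naive-like group, with 3 of 5 higher in memory-like than in naive-like cells. Rn45s, which encodes ribosomal RNA, made up 10.7 to 14.1% of the counts in the effector-like group, 12.6 to 17.4% in the memory-like group and 17.8 to 20.7% in the naive-like group. Naive-like libraries have a later date in their names than the others, so that date and group cannot be told apart. A fit without Rn45s kept the calls among the subsets, and beyond that fit the part of each of these in the members' differences was not tested. Leaving out 1 library ended the call of Hdac4 in effector-like against memory-like cells (without effector-like replicate 2 or 3, adjusted p up to 0.125) and of Hdac7 against naive-like cells (without effector-like replicate 1 or 2, up to 0.122). In memory-like against naive-like cells it ended that of Kdm5a (any of 10 libraries, up to 0.0976), Kdm5b (any of 8, up to 0.0846), Hdac4 (any of 5, up to 0.0801), Ezh2 (memory-like replicate 1, naive-like replicate 2 or 5, up to 0.0711) and Crebbp (memory-like replicate 1, 0.0504). Satb1 (both comparisons of effector-like cells), Hdac4 (effector-like against naive-like), and Kdm6b and Hdac5 (memory-like against naive-like) kept their calls in every such fit. Memory-like and naive-like libraries also share numbers in their names, and same-numbered libraries did not deviate together (correlations -0.0958 to 0.00577). Such correlations cannot show whether the numbers mark shared animals. With those numbers as a block Kdm6b alone kept its call in memory-like against naive-like cells, and the adjusted p was 0.119 for Ezh2, 0.313 for Kdm5a, 0.0884 for Kdm5b, 0.0904 for Hdac4, 0.0807 for Hdac5 and 0.055 for Crebbp. The members called in memory-like against naive-like cells numbered 2 without memory-like replicate 1, 3 without naive-like replicate 2, and 4 without memory-like replicate 3 or 5 or naive-like replicate 3. Those in effector-like against naive-like cells numbered 5 without naive-like replicate 6, and those in effector-like against memory-like cells 1 without effector-like replicate 2. Over all genes, the fits without 1 library called 340 to 815 in memory-like against naive-like cells, beside 683 in the main fit. They called 484 to 1068 in effector-like against naive-like cells (main fit 795) and 105 to 298 in effector-like against memory-like cells (237).

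The 7 members called in memory-like against naive-like cells were all called in the same direction in DP against DN cells, after blockade and after isotype, in libraries that the experiments do not share. They made up 35% of the 20 members called after blockade and 36.8% of the 19 called after isotype. Because the members were chosen with earlier results known, this overlap is not a test against all genes. Of all 663 genes called in memory-like against naive-like cells and tested in both experiments, 344 (51.9%) were called in the same direction in DP against DN cells after blockade, 10.5% of that list, and 425 (64.1%) after isotype, 11.8% of that list.

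In DN cells after blockade of PD-1 and Tim-3, Dnmt3a fell, and no other member was called. It had 35.3, 34.4 and 30.1 CPM after blockade, against 55.4, 51.1 and 45.7 CPM after isotype, in DN cells. The groups were apart by more than their spread, with a log2 fold change of -0.61 ± 0.11 (adjusted p = 0.0306). Beside this 1 member of 42, 1.12% of all genes were called in that comparison (0.519% higher and 0.598% lower). At an unadjusted p under 0.05 there were 7 members, beside 15.6% of all genes. With the number in the titles as a block the adjusted p was 0.0362, and 59 genes were called in place of 142. The call was lost when the DN libraries were fitted alone (0.183; 0.0945 with the block) and without any of 7 libraries: DN blockade replicate 1 or 3, DN isotype replicate 1 or 2, DP blockade replicate 1 or 3, or DP isotype replicate 3 (adjusted p up to 0.128).

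Other members with separate libraries in DN cells did not pass. Satb1 had 103, 122 and 66.8 CPM after blockade, against 167, 205 and 142 CPM after isotype (-0.82 ± 0.20, adjusted p = 0.0726). It was called by DESeq2 (0.00678) and without the filter on low counts (0.0308). Setd2 had 61.2, 62.9 and 60.9 CPM after blockade, against 79.7, 86.4 and 70.4 CPM after isotype (-0.35 ± 0.10, adjusted p = 0.115). Hdac7 differed by -0.35 ± 0.13 (adjusted p = 0.208) and Hdac1 by 0.19 ± 0.08 (adjusted p = 0.258). The libraries of 6 members did not overlap between treatments in DN cells, beside 16.7% of all genes.

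In DP cells no member was called by edgeR or DESeq2, 4 had an unadjusted p under 0.05 in edgeR (7.15% of all genes did), and 0.0629% of all genes were called (0.00787% higher and 0.0551% lower). The libraries of 7 members did not overlap, beside 16.6% of all genes. Kdm5a had 113, 95.5 and 108 CPM after blockade, against 128, 129 and 130.3 CPM after isotype (-0.29 ± 0.11, adjusted p = 0.62). Hdac7 had 49.4, 45.1 and 41.1 CPM after blockade, against 35.7, 33.5 and 39.7 CPM after isotype (0.32 ± 0.13, adjusted p = 0.662). Setd2 differed by -0.23 ± 0.10 (adjusted p = 0.673), without overlap. Kat2a, an H3 acetyltransferase, had 37.8, 32.7 and 39.9 CPM after blockade, against 24.6, 34.8 and 28.1 CPM after isotype, and these overlapped (0.33 ± 0.14, adjusted p = 0.671). The median log2 fold change of the members was -0.10 in DP and -0.10 in DN cells, against -0.01 and -0.00718 over all genes.

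**Figure D4:**
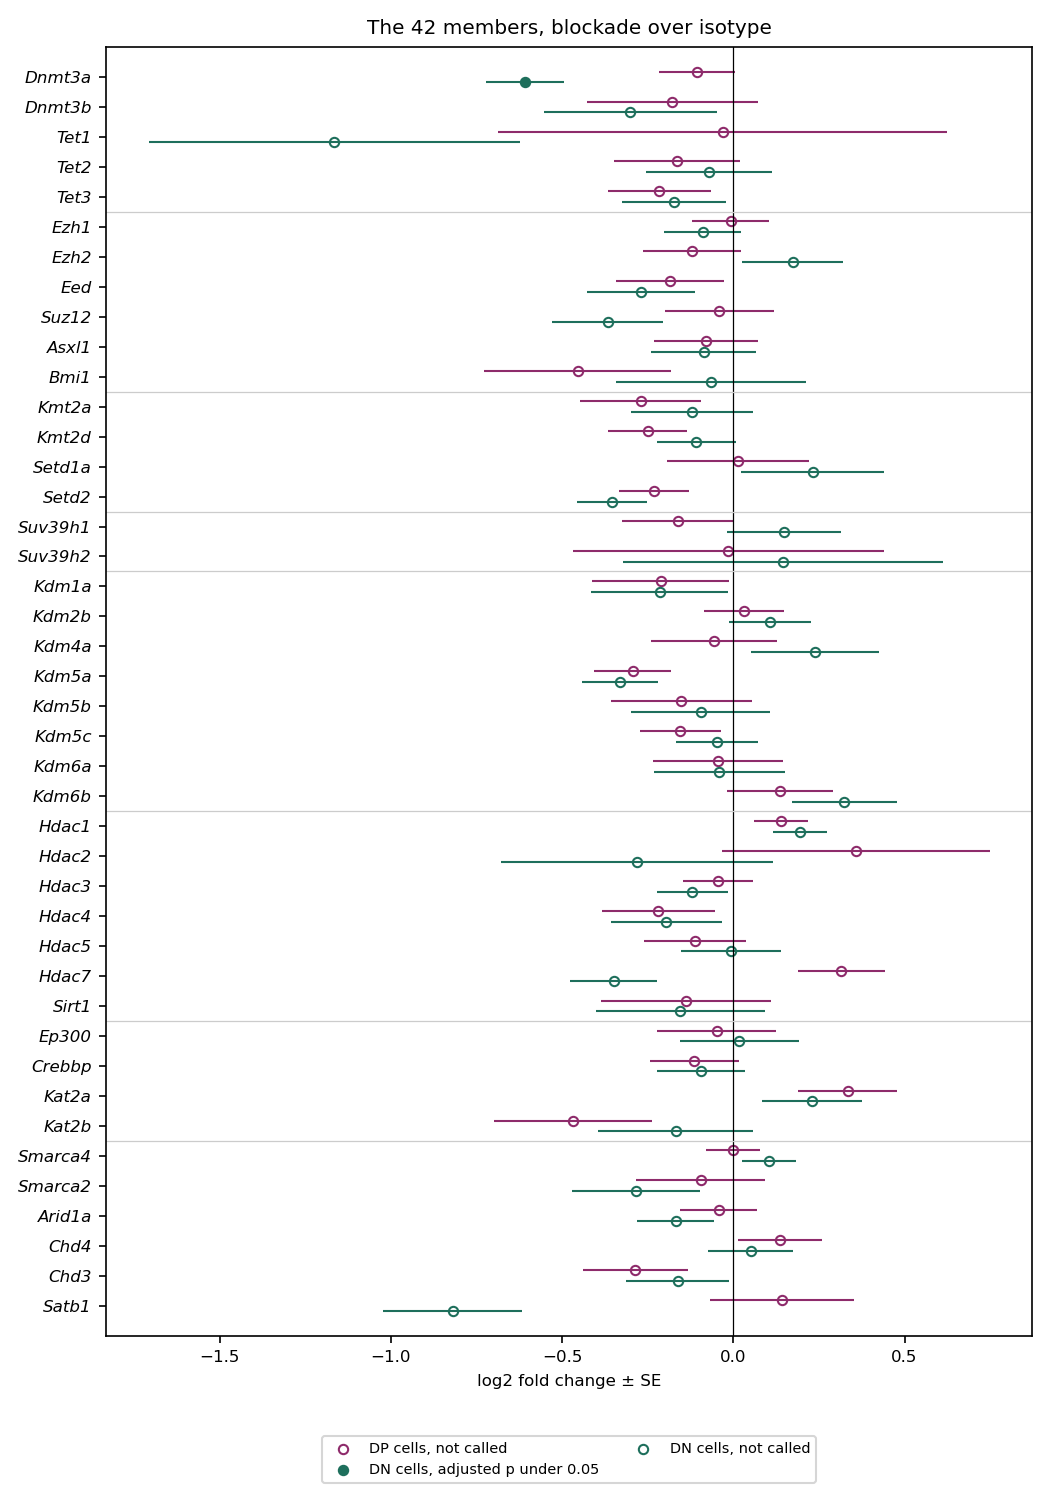
Log2 fold change ± SE of the 42 members, blockade over isotype, in DP and in DN cells, grouped by role between the grey lines. The filled point, Dnmt3a in DN cells, had an adjusted p under 0.05, and Hdac7 lies right of 0 in DP and left of 0 in DN cells.

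Whether blockade acted differently in the DP and DN populations was tested as an interaction. No member and 0% of all genes were called by edgeR. DESeq2 called 98 genes and no member. In edgeR 3 members had an unadjusted p under 0.05, beside 8.42% of all genes: Hdac7 (effect in DP minus effect in DN 0.66 ± 0.18, adjusted p = 0.309), Satb1 (0.96 ± 0.29, adjusted p = 0.347) and Dnmt3a (0.50 ± 0.16, adjusted p = 0.371). Of 6 red blood cell genes, all 6 were lower after blockade in DN cells and 4 in DP cells, with sums of 0.47 to 14.2 CPM after blockade, against 1404 to 3286 CPM after isotype, in DP cells, and 0.253 to 118 CPM, against 2709 to 5312 CPM, in DN cells, and their part in the members' values was not tested. In DN cells, naive and homing genes summed to 2211 to 2741 CPM after blockade, against 3571 to 4394 CPM after isotype (3 of 11 lower). Effector genes summed to 2722 to 3285 CPM after blockade, against 2008 to 2393 CPM after isotype (4 of 13 higher). Myeloid markers summed to 62.8 to 209 CPM after blockade, against 49.4 to 77.8 CPM after isotype (2 of 10 higher). Markers of plasmacytoid dendritic cells (1145 to 1679 CPM after blockade, against 1734 to 2623 CPM after isotype, 0 of 10 called) and of stroma and tumour (391 to 2076 CPM, against 127 to 894 CPM, 0 of 7 called) also varied. The part of T cell state and of these other cells in the lower Dnmt3a and Satb1 values was not tested. None of the 88 further chromatin genes was called in DN cells or in DP cells. At an unadjusted p under 0.05 in edgeR there were 10 in DN cells (beside 15.6% of all genes) and 9 in DP cells (beside 7.15%).

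Single cells gave a view of which DN cells carried the members. After filters, 2502 cells were kept after blockade and 2950 after isotype, with a median of 3839.5 and 3652 UMIs a cell, and 7 barcodes occurred in both libraries. Of the members, 41 had at least 50 UMIs, and Tet1 had 21. Cells were clustered on other genes, without the members, into 14 clusters, of which 3 were low in T cell genes (90 cells after blockade and 48 after isotype, with 16.7 and 8.26% of the UMIs). The clusters are given by number with their leading genes, and their values are a description without a test, with exact Poisson intervals (95%) that cover counting error only.

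Ezh2 had its highest level in the cluster with the most cell cycle RNA. It stood at 131 (116 to 148) CPM in cluster 10, led by Stmn1, Rrm2 and Birc5 and holding the highest sums of S phase and G2/M genes among T cells. Clusters 0 to 4, among them cluster 2, led by Gzma and Klrg1, had 35.9 to 45.5 CPM, and clusters 5 to 9 had 8.25 to 14.7 CPM, among them cluster 5, led by Dapl1, Ramp1 and Lef1, at 11.4 (8.04 to 15.7) CPM. Over the 11 T cell clusters, 41 members and 9075 genes in all had at least 50 UMIs. Of these members 13 had their highest level in cluster 10, beside 23.6% of all those genes, and 9 had their lowest there, beside 8.42%. Cluster 10 was also the deepest T cell cluster, with a median of 6502.5 UMIs a cell. Those at their highest were Dnmt3a, Ezh2, Eed, Suz12, Suv39h1, Suv39h2, Hdac1, Hdac2, Hdac3, Kat2a, Smarca4, Asxl1 and Bmi1, some by little: Bmi1 had 12.9 CPM with 11.4 CPM in the next cluster, and Dnmt3a 20.6 with 18.8 CPM. Those at their lowest were Tet3, Ezh1, Kdm4a, Kdm5c, Kdm6a, Crebbp, Smarca2, Arid1a and Chd3. Suv39h1 had 21.1 (15.1 to 28.6) CPM in cluster 10, with 3.08 to 8.54 CPM in the other T cell clusters, and Hdac1 had 161 (144 to 180.0) CPM, with 61.5 to 125 CPM in the others.

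Satb1 and Chd3 were highest in other clusters. Satb1 had 116 (98.9 to 135), 91.4 (79.6 to 105) and 118 (103 to 133) CPM in clusters 0, 1 and 2, led by interferon-stimulated genes, by Cxcr6 and haemoglobin genes, and by Gzma. It had 229 to 303 CPM in clusters 3 to 8 and 533 (500.4 to 568) CPM in cluster 9, led by Hspa1a and Cxcl10. In cluster 11, led by Krt8 and low in T cell genes, it had 2.9 (1.17 to 5.97) CPM. Chd3 was highest in cluster 4, led by Izumo1r and Itgae, at 188 (162 to 217) CPM, and lowest among T cells in cluster 10, at 53.6 (43.8 to 64.9) CPM. Cluster 4 held the highest T cell level of 10 of those 41 members, beside 13.8% of all genes: Tet3, Kdm1a, Kdm4a, Kdm6a, Kmt2a, Setd2, Ep300, Smarca2, Chd4 and Chd3. For Kdm1a (17.5 with 16.2 CPM in the next cluster) and Kdm4a (9.25 with 7.91 CPM) the lead was small.

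**Figure D5:**
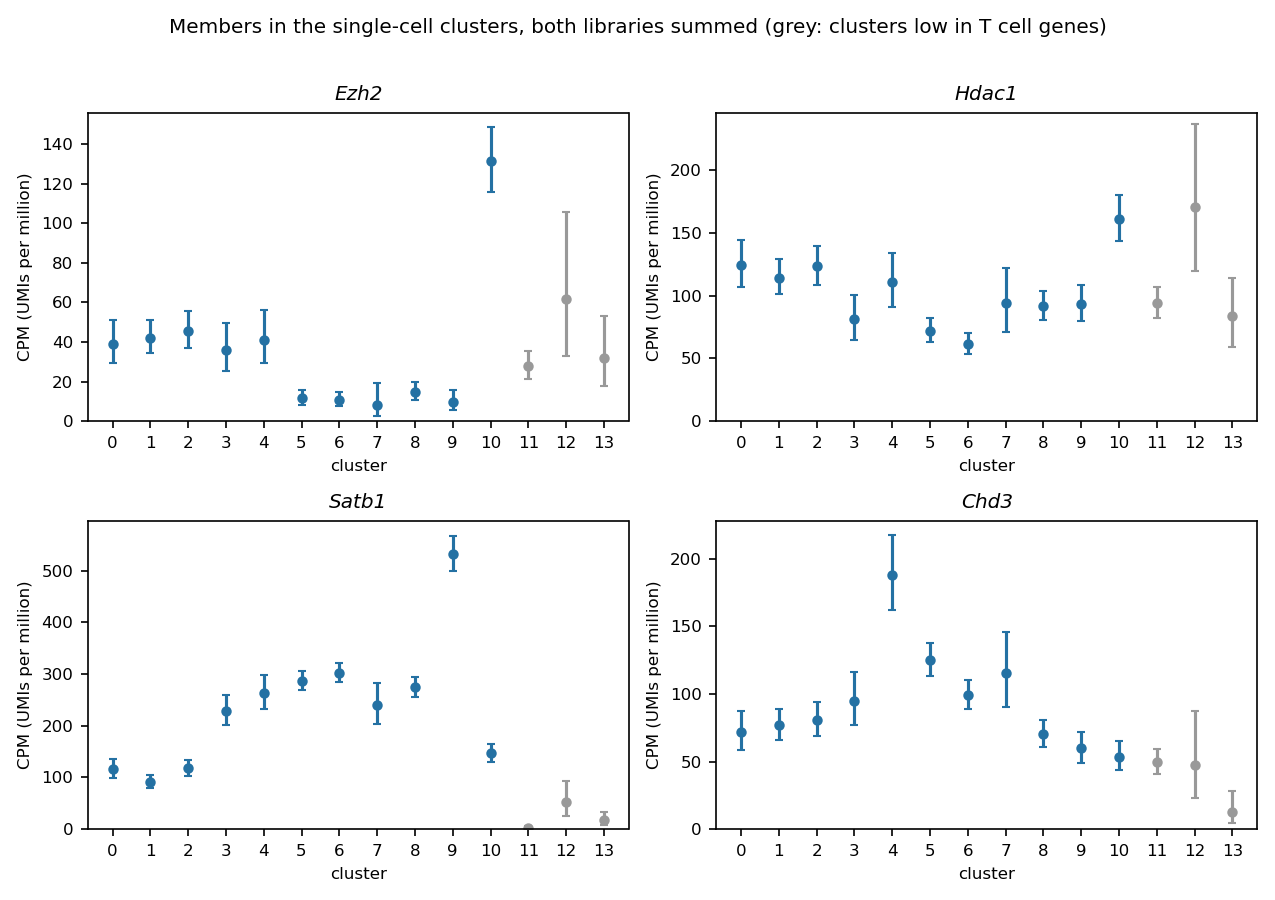
CPM of Ezh2, Hdac1, Satb1 and Chd3 in each single-cell cluster, both libraries summed, with exact Poisson 95% intervals. Ezh2 and, among T cell clusters, Hdac1 peak in cluster 10, Satb1 peaks in cluster 9 and is low in clusters 0 to 2, and Chd3 peaks in cluster 4.

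Between the libraries of DN cells after blockade and after isotype, 2 members were past 1.5-fold, both higher after blockade, beside 21.5% of all genes with at least 50 UMIs past that fold in either direction (17.3% higher and 4.21% lower). There is 1 library a group, so no difference has a replicate check. The direction of every ratio rests on matching the barcode suffixes 1 and 2 to the sample numbers 1 (isotype) and 2 (blockade) in the labels. Some marker sums lay as in the bulk DN cells and some did not: naive and homing genes summed to 2234 CPM after blockade, against 4479 CPM after isotype, which is the bulk order, whereas the red blood cell genes found in the table summed to 144 CPM after blockade, against 8.80 CPM after isotype, the reverse of the bulk order. Ezh2 had 39.7 (36.3 to 43.3) CPM after blockade, against 25.9 (23.1 to 28.9) CPM after isotype, a ratio of 1.53. Kat2b had 8.07 (6.56 to 9.81) CPM after blockade, against 4.28 (3.2 to 5.59) CPM after isotype, a ratio of 1.89, while in the bulk DN libraries Kat2b had a log2 fold change of -0.17 ± 0.23. Without the clusters low in T cell genes the ratios were 1.63 and 1.87, and Kdm2b was also past the fold at 1.54. The median log2 ratio of all genes was 0.16, the members' median was -0.02, and ribosomal and mitochondrial genes took 35.1% of UMIs after blockade and 44.7% after isotype. Scaled to the UMIs outside those genes, where the median of all genes was -0.06, Ezh2 stood at 1.31 and Kat2b at 1.61, and Kmt2d (0.582), Chd3 (0.569) and Satb1 (0.642) were past the fold downwards.

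The members named in the bulk comparison of DN cells had these values in the single-cell libraries. Dnmt3a had 12.3 (10.4 to 14.4) CPM after blockade, against 15.1 (13 to 17.4) CPM after isotype, a ratio of 0.812. Satb1 had 183 (176 to 191) CPM after blockade, against 243 (235 to 252) CPM after isotype, a ratio of 0.753. Setd2 (0.884) and Hdac7 (0.867) were also below 1 and Hdac1 (1.21) above 1. Each had the sign of its bulk value, and none was past 1.5-fold at this scaling. Of the 41 members with at least 50 UMIs, 26 were below 1, and the signs of all genes were not compared. Intervals after blockade and after isotype overlapped for Dnmt3a, Setd2 and Hdac7. Scaled to the UMIs outside ribosomal and mitochondrial genes, Hdac1 stood at 1.03. Within cluster 10 Ezh2 stood at 129.6 CPM after blockade, against 134 CPM after isotype, and in cluster 2 at 51.1, against 37.2 CPM. Satb1 had 130.5 CPM after blockade, against 98.5 CPM after isotype, in cluster 2, 288, against 246 CPM, in cluster 8, and 485, against 634 CPM, in cluster 9. Blockade was the higher library in clusters 2 and 8 and the lower in cluster 9. The libraries filled the clusters differently: cluster 5 held 25 cells after blockade and 935 after isotype, and cluster 1 held 475 after blockade and 84 after isotype. Doublets were not removed.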

How the data were processed

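RNA of sorted CD8+ TILs was measured in 26 bulk libraries (about 2000 cells each, adapted SMART-Seq2, which does not mark strand, so overlapping antisense genes cannot be told apart) and 2 droplet libraries, per the labels. The deposited bulk tables hold expected counts per gene, with TopHat, RSEM, DESeq and mm9 named in the submitters' processing notes; 22.6% and 30.5% of the values were not whole, and all were rounded to whole numbers. A second deposited table per experiment holds the authors' normalized signal, proportional within each gene to scaled counts, and was used only for levels between genes. The single-cell table holds deposited UMI counts (Cell Ranger 1.3, mm10); cells were assigned to isotype or blockade by matching barcode suffix 1 or 2 to sample number 1 or 2 in the labels' descriptions, and the direction of every single-cell ratio rests on this match.

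Members were found by symbol or older symbol (Kmt2a, Kmt2b and Kmt2d as Mll1, Wbp7 and Mll2 where so listed); 4 lines with repeated names in the subset table were left out. The members and lists were chosen with earlier results of these data known. edgeR 4.0.16 in R 4.3.3 (filterByExpr, TMM, quasi-likelihood F-test, one mean per group over all libraries of an experiment) gave p-values adjusted by Benjamini-Hochberg over all genes tested; the test was also run on simulated data. A member is named with values in a comparison where it was called, or where its groups did not overlap at an unadjusted p under 0.05; up to 4 called genes of smallest p are taken from the further chromatin list. DESeq2 1.42.0, other size factors, no filter, leaving out Rn45s, blocks and leaving out each library were tried as alternatives. Same-numbered DN libraries deviated together (correlations 0.122, 0.383 and 0.184), and title numbers were tried as a block in alternative fits. The main fit had no block. Nothing in the labels says that these numbers mark shared animals, and library names number DN isotype and DN blockade libraries differently. In no other comparison did every pair of title numbers exceed 0.1.

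Cells under 500 genes or over 10% mitochondrial UMIs were dropped, and the others were clustered with scanpy 1.11.5 (2000 variable genes without the members, 30 components, 15 neighbours, Leiden resolution 1). Depth limits the single-cell values, and intervals cover counting error only.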

Additional observations from a re-analysis of the deposited data

Results flagged for a closer look

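In 84 group and member combinations of 5 or 6 libraries, 4 had an end library farther from the rest than Dixon's 95% critical value allows. Chance gives about 1 in 20, so 4 of 84 is not more than chance would give. Eed, a polycomb repressive complex 2 subunit, had 80.7 CPM in memory-like replicate 2, and the next library had 38.1 CPM. Hdac7 had 62.9 CPM in the same library, next to 44.0 CPM. Tet1 had 16.8 CPM in naive-like replicate 4, next to 7.52 CPM, and Kdm4a, a demethylase of H3K9, had 12.6 CPM in naive-like replicate 6, next to 5.26 CPM. Without these 3 libraries, the members called in effector-like against naive-like cells numbered 5, a choice made after seeing the data.

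Hdac7 was higher after blockade than after isotype in every DP library and lower in every DN library, with no overlap in either population. The effect in DP minus that in DN cells was 0.66 on the log2 scale, with an adjusted p of 0.309 in edgeR's interaction test, which did not pass.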

How the results depend on the processing

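No member's called change reversed under any alternative. Of 52 calls of a member in a comparison, DESeq2 and DESeq2 size factors kept all 52, leaving out Rn45s kept 51, no filter on low counts 48, the title-number replicate block 46, fitting only the libraries compared 44, and both together 29. The block on library-name numbers kept 39 of the 46 it covers. Leaving out 1 library kept 564 of 648. Members called ranged over those fits from 1 to 2 in effector-like against memory-like, 2 to 5 in effector-like against naive-like, 2 to 9 in memory-like against naive-like, 0 to 2 in DN blockade, 17 to 20 in DP against DN after isotype and 12 to 21 after blockade, and stayed at 0 for DP blockade and the interaction. All genes called in those fits ranged from 105 to 298 in effector-like against memory-like and 484 to 1068 in effector-like against naive-like. They ranged from 340 to 815 in memory-like against naive-like and 22 to 229 in DN blockade. In DP against DN the range was 2880 to 4041 after isotype and 2386 to 3812 after blockade. It was 3 to 9 for DP blockade and 0 to 3 for the interaction. DESeq2 called 7 members in effector-like against naive-like cells and 2 in DN blockade, as did no filter (2). Effector-like against memory-like had 1 under the replicate block, 1 when only those libraries were fitted and 0 with both. There same-numbered libraries did not deviate together. With only the groups compared and the block, memory-like against naive-like had 3, DN blockade 0 (0 also without the block), DP against DN 12 after isotype and 13 after blockade. In DP against DN, libraries of the same title number did not deviate together either. Their correlations were -0.334 to -0.00600 after isotype and -0.0587 to 0.0424 after blockade. The block on library-name numbers gave 1 in memory-like against naive-like. Without memory-like 2 and naive-like 4 and 6, effector-like against naive-like had 5. Scaled outside ribosomal and mitochondrial genes, 4 members were past the fold in single cells. The causes were not tested. Over all genes, DESeq2 called 539 in place of 237 (effector-like against memory-like), 1284 of 795 (effector-like against naive-like), 1318 of 683 (memory-like against naive-like), 521 of 142 (DN blockade), 55 of 8 (DP blockade) and 98 of 0 (interaction). No filter called 224 in DN blockade, 17 in DP blockade and 7 in the interaction. DN blockade had 59 under the block, 2 fitted alone and 21 fitted alone with the block, and DP blockade had 4, 16 and 48. The subset libraries' larger spread limits what can be detected there.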

Other observations

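Further paralog pairs also divided unequally on the authors' per-length signal. Kmt2d exceeded Kmt2a, another methyltransferase of H3K4, in all 26 bulk libraries, with 20.2 ± 1.68 and 9.57 ± 0.755 in DP cells after isotype and 31 ± 4.6 and 10.3 ± 2.22 in DN cells after isotype (mean ± SD, n = 3). The acetyltransferase Kat2a exceeded Kat2b in all 26, with 9.58 ± 1.61 and 2.99 ± 0.734 in DP cells and 10.7 ± 0.801 and 3.93 ± 0.44 in DN cells after isotype. Kdm6b exceeded Kdm6a in all but 1 library, at 15.7 ± 1.17 and 7.05 ± 1.28 in DP cells and 22.1 ± 4.5 and 8.91 ± 1.53 in DN cells after isotype. Single DN cells kept the order for Kat2a over Kat2b and Kdm6b over Kdm6a, but not for Kmt2d over Kmt2a. There Kmt2d had 18.5 CPM and Kmt2a 25.6 CPM after blockade. The values were 27.2 and 29.1 CPM after isotype, where the intervals overlapped.

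In the single-cell clusters low in T cell genes, Suv39h1 had 34.8 (27.8 to 43.1) CPM in cluster 11, led by Krt8 and Lgals7, above every T cell cluster, and 0 UMIs in cluster 12, led by genes of antigen presentation. Hdac1 had 171 (119.7 to 237) CPM in cluster 12, an interval that holds its value in cluster 10. Satb1 was at 17.1 (7.39 to 33.7) CPM in cluster 13, led by Lyz2 and C1qb. These clusters hold few cells, and the values are descriptions with no test.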
